A study of Mus musculus with 2 samples.

Results

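Cells with pericyte transcripts were selected from 2 single-cell RNA libraries of mouse lung, and 527 such cells were found among 15695 filtered cells. Of these, 376 had few contractile transcripts and are called pericytes below, and 151 were rich in them and are described by their genes alone. A cell was counted when it held at least 500 transcripts (unique molecular identifiers, UMIs), at least 200 genes and at most 10% mitochondrial UMIs. A selected cell had at least 4 UMIs in sum of Cox4i2, Higd1b, Pdgfrb, Postn, Gucy1a1 and Ndufa4l2, at least 2 of these 6 genes seen, and no UMI of Ptprc (leukocytes), Cdh5 (endothelium), Epcam (epithelium) or Pdgfra (fibroblasts). The study asked how the lung changes when it is exposed to what a tumor secretes before any cancer cell arrives. Whole lungs came from female BALB/c mice of 9 to 10 weeks that had received intravenous injections for 3 weeks. One group received control media (CM), and the other received tumor conditioned media (TCM), which is medium in which 4T1 mouse breast tumor tissue had been kept. The labels name no tumor and no altered gene in the mice of either group. Each group was 1 library, and the number of mice pooled in it is not stated in the sources used here. No test between the groups was therefore possible. The intervals below cover counting error only, not the spread between mice or between the cells of a library.

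Pericytes sit in the basement membrane of capillaries, pressed against the endothelium. They are recruited by platelet-derived growth factor B through the receptor Pdgfrb, receive Notch signals through Notch3, and relax in response to nitric oxide through soluble guanylate cyclase, whose subunits are encoded by Gucy1a1 and Gucy1b1. In the lung they share a number of contractile genes with the smooth muscle of vessels and airways, and they are a known source of matrix and of signals to the endothelium.

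Over all selected cells, 4.92% of all genes tested had an interval of the log2 ratio of TCM to CM above 0 and 4.97% had one below. Of 12 genes that glucocorticoids induce, 7 were higher in TCM, among them the transcription factor Zbtb16, which was 3.77-fold higher. In fibroblasts 9 of the 12 were higher. Of 21 matrix genes 9 were higher, with Col4a1 and Hspg2 at log2 ratios of 0.52 and 0.79. In fibroblasts 13 of 21 were higher. Of 20 immediate early and heat-shock genes 8 were lower, with Hspa1a at -0.79, though the median of that list turned from -0.14 to 0.05 without the 5 deepest cells of each library. Of 16 chemokine and niche genes 9 were higher, neutrophil genes and genes of few cells among them. Of 12 contractile genes 7 were higher and 2 lower over all selected cells, but 2 were higher and 4 lower within the cells rich in contractile transcripts. In smooth muscle cells that did not meet the rule 10 of 12 were higher. Of 15 pericyte markers outside the rule 1 was higher and 2 were lower.

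The CM library held 293 of the selected cells and the TCM library 234. The median depth of a selected cell was 2440 UMIs (CM) or 2501.5 (TCM), where all filtered cells had 2085 or 2346. All 6 markers were seen in 144 CM cells (49.1%) and 103 TCM cells (44.0%), and only 2 of them in 28 and 21 cells. The median marker sum per cell was 24 UMIs for CM and 22 for TCM, with maxima of 129 and 122. The positive part of the rule alone was met by 628 CM and 514 TCM cells, and a UMI of Cdh5 was the most frequent reason for leaving one out, in 289 and 226 cells. Just inside the threshold, at 4 marker UMIs, lay 23 CM and 16 TCM cells with 160 and 172 UMIs per 100000 of 16 other pericyte markers. Just outside, at 3 marker UMIs, lay 17 cells in each library with 175 and 192 UMIs per 100000 of the same markers. No barcode was shared by the selected cells of both libraries, although 93 barcodes were shared by their filtered cells.

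The label was checked against the 16 pericyte markers that the rule did not use, among them Cspg4, Kcnj8, Notch3, Trpc6 and Gucy1b1. At least 3 of them were seen in 260 selected CM cells (88.7%) and 220 TCM cells (94.0%). The selected cells were nevertheless of 2 kinds. Most of them, 218 in CM and 158 in TCM, held fewer than 5 UMIs of Acta2, Myh11, Cnn1 and Actg2 together, genes of the smooth muscle contractile apparatus, and are called Acta2-poor pericytes here. The other cells, 75 in CM and 76 in TCM, held 5 or more and are called Acta2-rich cells. The split was made after the values were seen. Near it, 45 CM and 41 TCM cells held 1 to 4 such UMIs, 9 and 9 held 5 to 9, and 61 and 63 held 20 or more.

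**Figure D1:**
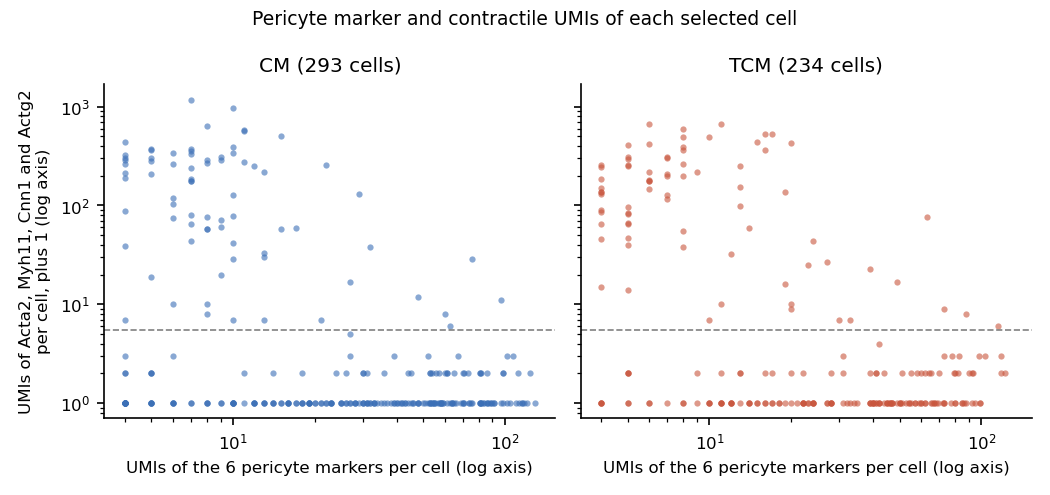
Each point is 1 selected cell of the CM library (left, 293 cells) or the TCM library (right, 234 cells). The x axis gives the UMIs of the 6 pericyte markers and the y axis the UMIs of Acta2, Myh11, Cnn1 and Actg2 plus 1, both on log axes. The dashed line separates cells with under 5 contractile UMIs from the 75 CM and 76 TCM cells above it, most of which lie at the low end of the marker sum.

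The 6 markers of the rule, which chose the cells, summed to 2067 UMIs per 100000 in CM and 2028 in TCM in the Acta2-poor cells and to 233 and 244 in the Acta2-rich cells. The 16 other pericyte markers summed to 943 and 967 UMIs per 100000 in the Acta2-poor cells, to 242 and 244 in the Acta2-rich cells, and to 147 and 180 in 85 CM and 55 TCM smooth muscle cells that did not meet the rule. They summed to 70.5 and 72.5 in endothelial cells, 23.0 and 18.4 in fibroblasts, and 4.43 and 4.78 in T cells, a cell type that should lack them. Endothelial cells, fibroblasts and T cells were chosen to hold no UMI of Cox4i2 or Higd1b, so cells with pericyte RNA were partly left out in advance. The 8 smooth muscle markers summed to 87.4 and 104 in the Acta2-poor cells and to 3781 and 3342 in the Acta2-rich cells, beside the 2797 and 3793 of the other smooth muscle cells. This sum is a description, because it holds the 4 genes that made the split. Tagln, a smooth muscle gene used neither for the split nor for the smooth muscle class, stood at 18.3 and 13.1 UMIs per 100000 in the Acta2-poor cells, 1619 and 1454 in the Acta2-rich cells and 1442 and 1595 in the other smooth muscle cells. Lmod1, a leiomodin gene of smooth muscle, stood at 3.35 and 4.58, 65.2 and 57.0 and 40.6 and 68.0 in the same order. On the markers outside the rule the Acta2-poor cells had the highest levels of these classes, and the Acta2-rich cells lay between them and the other smooth muscle cells. This order is a description, because the choice of the comparison classes fixed part of the contrast. Tagln and Lmod1 are named here after their values were seen.

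**Figure D2:**
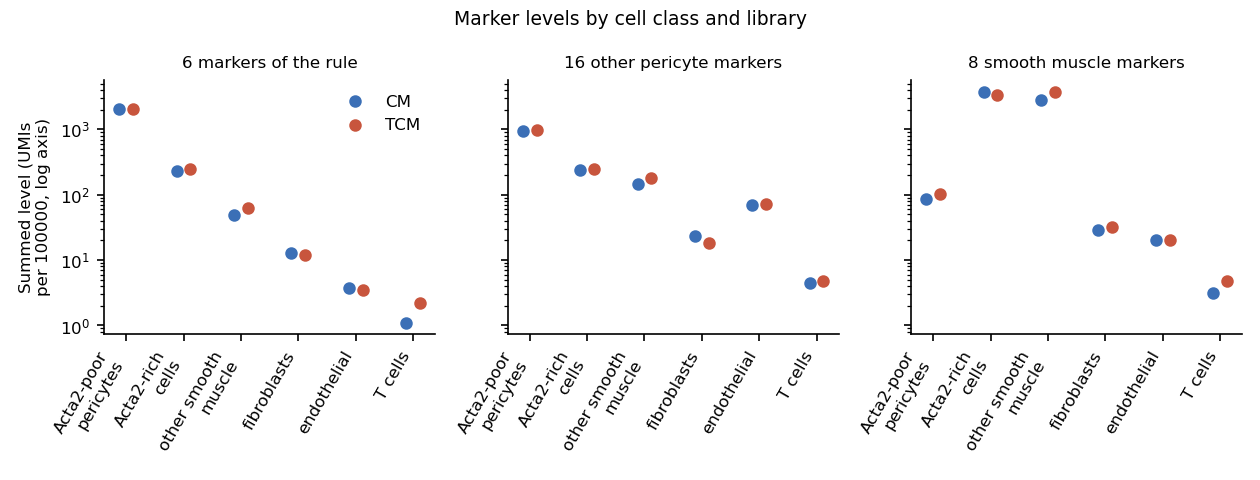
Summed levels of the 6 markers of the rule, 16 other pericyte markers and 8 smooth muscle markers in 6 cell classes, in UMIs per 100000 on a log axis, with 1 point per library. The Acta2-poor pericytes lead both pericyte panels at 2067 and 943 UMIs per 100000 in CM, and the Acta2-rich cells reach 3781 in the smooth muscle panel, which includes the 4 genes of the split. Fibroblasts, endothelial cells and T cells were chosen to hold no UMI of Cox4i2 or Higd1b.

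Acta2-rich cells held more UMIs per cell, and their part in the sums differed between the libraries. Their median depth was 5016 UMIs for CM and 5837 for TCM, against 2041 and 1786 in Acta2-poor cells, and they gave 48.7% of all UMIs of the selected cells in CM and 58.0% in TCM. A sum over all selected cells therefore weighs Acta2-rich cells more in TCM. Results below are given over all selected cells, within one kind of cell, or both, as named.

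Selected cells made up 3.67% of filtered cells in CM (exact 95% interval 3.27 to 4.10) and 3.04% in TCM (2.66 to 3.44), a ratio of 0.828. Acta2-poor pericytes were at 2.73% (2.38 to 3.11) in CM and 2.05% (1.75 to 2.39) in TCM, and these intervals met only at their ends. Acta2-rich cells were at 0.939% (0.739 to 1.18) and 0.986% (0.778 to 1.23), and their intervals overlapped almost entirely. Among filtered cells without a UMI of the leukocyte gene Ptprc, selected cells were 5.22% of 5614 in CM and 4.97% of 4711 in TCM, a ratio of 0.952 (0.798 to 1.13). The ratio over all filtered cells thus moved toward 1 when leukocytes were taken out of the denominator. Shares of cells set by the lung and by its dissociation cannot be told apart here.

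Levels of genes were compared as UMIs summed over the cells of a library and divided by all UMIs of those cells. The log2 ratio of TCM to CM is given with its 95% counting interval in parentheses. Of 8326 genes with at least 20 UMIs over both libraries, 2.64% were at least 2-fold higher in TCM and 1.74% at least 2-fold lower. The interval lay above 0 for 4.92% and below 0 for 4.97%, and the median log2 ratio was -0.02. Within Acta2-poor pericytes 5980 genes had enough UMIs, with the interval above 0 for 4.06% and below 0 for 3.49%, and 2.84% and 2.78% past 2-fold in either direction. Within Acta2-rich cells these were 5582 genes, 4.41%, 4.28%, 3.94% and 2.02%.

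RNA of other cells was present in both libraries. The free RNA estimate and the sums of neutrophil, epithelial and macrophage and monocyte markers were higher in TCM. Those of endothelial, fibroblast, lymphocyte and erythroid markers were lower. From 8 genes of club cells and erythrocytes in nearly empty droplets, free RNA was estimated at 4.16% of the UMIs of selected cells in CM and 7.96% in TCM, or 124 and 262 UMIs per cell. It was 6.24% and 12.3% in Acta2-poor pericytes. One Acta2-rich TCM cell held 2226 UMIs of these genes and was left out of the estimate. Of 7 neutrophil markers, all were seen in both libraries, and they summed to 5.73 UMIs per 100000 in CM and 138 in TCM. The 8 epithelial markers summed to 597 and 981, with Epcam at 0 by the rule. They stood at 992 and 1282 in Acta2-poor pericytes and at 181 and 763 in Acta2-rich cells. The Acta2-rich TCM cell rich in club cell RNA was not left out of these sums. The 10 endothelial markers summed to 44.8 and 27.1, with Cdh5 at 0 by the rule. The 12 fibroblast markers summed to 90.7 and 88.3, with Pdgfra at 0 by the rule. Macrophage and monocyte markers summed to 47.1 and 50.8, lymphocyte markers to 4.81 and 3.08 and erythroid markers to 2.18 and 0.256. Mesothelial markers reached 5 UMIs in 7 CM cells and 1 TCM cell, and the fibroblast genes Dcn and Lum did so in 1 and 2 cells. Their part in the results was not tested, except where a value is given.

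Glucocorticoids act through a nuclear receptor that switches on a set of genes in many cell types. Of 12 such genes, all had enough UMIs in the selected cells, 7 had an interval above 0 (4.92% of all genes), 1 had one below 0 (4.97% of all genes), and the median log2 ratio was 0.33. The 3 past 2-fold (2.64% of all genes) were Zbtb16, Fkbp5 and Pdk4. Zbtb16, a zinc finger transcription factor (chromosome 9, 48654297 to 48836222, minus strand, build GRCm38), gave 43 UMIs in 33 CM cells and 145 UMIs in 82 TCM cells. This was 4.93 UMIs per 100000 in CM and 18.6 in TCM, and the log2 ratio was 1.92 (1.42 to 2.44). No single cell held more than 5.85% of its UMIs. In Acta2-poor pericytes it had 11 UMIs in CM against 37 in TCM, with a ratio of 2.2 (1.2 to 3.32), and in Acta2-rich cells 32 UMIs in CM against 108 in TCM, with a ratio of 1.66 (1.08 to 2.28). Both kinds of cell thus had more Zbtb16 in TCM.

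Fkbp5, which encodes a co-chaperone of the glucocorticoid receptor (chromosome 17, 28399094 to 28517527, minus strand), had 7 UMIs in 7 CM cells and 26 UMIs in 24 TCM cells, a ratio of 2.05 (0.81 to 3.5). Acta2-poor pericytes had 3 UMIs in CM against 21 in TCM, a ratio of 3.26 (1.51 to 5.65), and Acta2-rich cells had 4 UMIs in CM against 5 in TCM, a ratio of 0.23 (-1.98 to 2.56). Klf9, a Kruppel-like transcription factor, was at 38.7 UMIs per 100000 in CM and 52.9 in TCM, with ratios of 0.51 (0.17 to 0.84) in Acta2-poor and 0.36 (0.082 to 0.64) in Acta2-rich cells. Pdk4, a kinase that holds back pyruvate dehydrogenase, had 15 UMIs in CM against 30 in TCM, and nearly all of them lay in Acta2-rich cells. The metallothionein genes Mt1 and Mt2, which bind zinc, rested on single cells. In Acta2-poor pericytes Mt1 had 95 UMIs in CM against 293 in TCM, a ratio of 2.08 (1.74 to 2.42), and Mt2 had 12 UMIs in CM against 29 in TCM, a ratio of 1.72 (0.71 to 2.83). One TCM cell held 235 of the Mt1 UMIs and one held 26 of the Mt2 UMIs. Without the top cell of each library the ratios were 0.45 (-0.10 to 1.0) and -0.94 (-3.49 to 1.12), and both intervals included 0. In Acta2-rich cells Mt1 was lower in TCM, at -0.37 (-0.48 to -0.25). The transcription factor gene Cebpd was lower over all cells at -0.22 (-0.38 to -0.067), with an interval that included 0 in Acta2-poor pericytes, -0.11 (-0.36 to 0.13). There one TCM cell held 51 of its UMIs, and without the top cell of each library Cebpd was lower at -0.32 (-0.60 to -0.052). Sgk1, a kinase gene of the same list, had 59 UMIs in CM against 44 in TCM and an interval that included 0. Within Acta2-poor pericytes 5 of 10 list members with enough UMIs had an interval above 0 (4.06% of all genes), Mt1 and Mt2 among them, and none below, with a median of 0.77 beside -0.02 over all genes. Within Acta2-rich cells these were 4 above (4.41% of all genes) and 2 below (4.28%) of 11, with a median of 0.17 beside -0.01. Klf9, Pdk4 and Mt2 are named here after their values were seen.

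The share of cells with a UMI gave the same direction at equal depth. After each cell was thinned to 1000 UMIs, so that 45 CM and 36 TCM cells of lower depth dropped out, Zbtb16 was seen in 4 of 248 selected CM cells (1.61%, 0.441 to 4.08) and 25 of 198 TCM cells (12.6%, 8.34 to 18.1). Without thinning it was seen in 33 of 293 and 82 of 234. T cells had it in 5 of 485 and 7 of 357 thinned cells. Klf9 was seen in 31.0% (25.3 to 37.2) and 44.9% (37.9 to 52.2) of thinned selected cells. Fkbp5 was too rare for this comparison, with 3 and 6 cells.

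**Figure D3:**
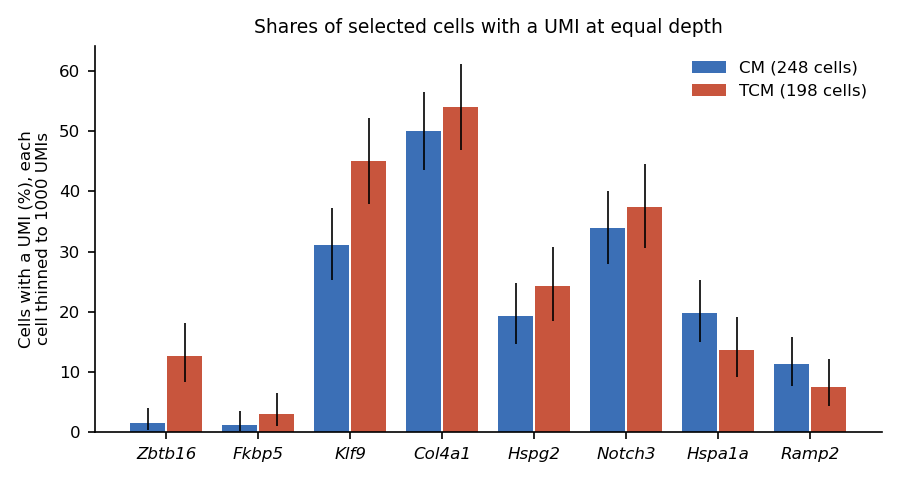
Percent of selected cells with at least 1 UMI of each gene after thinning every cell to 1000 UMIs, in 248 CM and 198 TCM cells, with exact 95% binomial intervals as error bars. Zbtb16 stands at 1.61% in CM and 12.6% in TCM and Klf9 at 31.0% and 44.9%, while the bars of Col4a1, Hspg2, Notch3, Hspa1a and Ramp2 have overlapping intervals.

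The higher Zbtb16 was not particular to the selected cells. Its ratio was 1.52 (1.33 to 1.72) in fibroblasts, 1.61 (0.88 to 2.39) in the other smooth muscle cells, 0.97 (0.81 to 1.14) in endothelial cells and -0.051 (-0.89 to 0.76) in T cells. The ratio over all selected cells exceeded that of T cells by 1.97 (1.05 to 2.88) and that of endothelial cells by 0.94 (0.43 to 1.46), while its difference from fibroblasts, 0.39 (-0.13 to 0.92), had an interval that included 0. Fkbp5 stood at 1.14 (0.56 to 1.74) in fibroblasts and 1.61 (0.98 to 2.28) in endothelial cells. The list as a whole was not particular to the selected cells either. In fibroblasts 9 of 12 members had an interval above 0 (6.4% of all genes) and none below, with a median of 0.55. In the other smooth muscle cells 4 of 11 lay above (5.82%), with a median of 0.33. In endothelial cells 4 of 11 lay above (8.95%), with a median of 0.03. In T cells 1 of 10 lay above (5.39%) and 2 below (4.58%), with a median of -0.025.

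The region before the start site was read for the genes of this list that RefSeq's promoter table (GRCm38.p6) holds, which were 10 of 12. The table has no entry for Zbtb16. The glucocorticoid receptor half-site AGAACA was present on either strand in the 250 bases before the start of Sgk1 and Tsc22d3 and in 16.1% of all 32851 promoters. The E-box CACGTG, which clock and other basic helix-loop-helix factors bind, was present in those of Fkbp5, Per1 and Sgk1 and in 6.02% of all promoters. Motifs were searched as exact letters on both strands, and AGAACA is not in the Fkbp5 and Per1 windows shown. The windows of Fkbp5 (chr17:28486150-28486399, minus strand) and Per1 (chr11:69098699-69098948, plus strand) are shown because both genes were higher in TCM, with the E-box in capitals, 5' to 3' toward the start site.
Fkbp5: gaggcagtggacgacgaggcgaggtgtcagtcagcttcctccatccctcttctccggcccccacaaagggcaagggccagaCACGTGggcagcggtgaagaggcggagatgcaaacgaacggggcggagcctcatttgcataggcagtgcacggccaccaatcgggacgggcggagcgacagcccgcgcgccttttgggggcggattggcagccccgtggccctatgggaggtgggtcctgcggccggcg
Per1: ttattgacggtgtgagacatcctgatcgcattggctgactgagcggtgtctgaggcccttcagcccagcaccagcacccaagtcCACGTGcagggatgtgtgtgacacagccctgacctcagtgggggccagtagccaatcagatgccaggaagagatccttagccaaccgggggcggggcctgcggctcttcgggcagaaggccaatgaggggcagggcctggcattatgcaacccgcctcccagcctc
The start site is the one in RefSeq's table, which for both genes lies inside the gene's span in the GRCm38 annotation, and the windows therefore lie inside that span too. The E-box ended 163 bases before this start of Fkbp5 and 160 bases before that of Per1. These matches describe the sequence and do not show that a factor was bound.

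Clock genes keep daily time in most cells, and some of them, Per1 first, also answer to glucocorticoids. Only 10 of 16 had enough UMIs. Per1, which encodes a repressor of the clock, had 30 UMIs in 29 CM cells and 50 UMIs in 36 TCM cells, a ratio of 0.90 (0.22 to 1.6), and Nr1d1, which encodes another repressor, had 28 UMIs in CM against 46 in TCM, a ratio of 0.88 (0.17 to 1.61). Arntl, which encodes the activator that both oppose, was lower, with 55 UMIs in CM against 29 in TCM, a ratio of -0.76 (-1.46 to -0.088). Within Acta2-poor pericytes the intervals of Per1 and Arntl included 0, 1.04 (-0.0084 to 2.12) and -0.45 (-1.46 to 0.50). No other clock gene had an interval off 0 over all selected cells. Thus 2 of 10 lay above 0 (4.92% of all genes) and 1 below (4.97%), with a median of 0.39. Within Acta2-poor pericytes none of 4 genes with enough UMIs had an interval off 0. Within Acta2-rich cells 1 of 6 lay below 0 (4.28% of all genes) and none above (4.41%), and the median was -0.40. The hour at which each lung was taken is not given in the sources used here.

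Pericytes help to build the basement membrane that they share with the endothelium. Of 22 matrix genes, 21 had enough UMIs, 9 had an interval above 0 (4.92% of all genes) and 1 below (4.97%), and none was past 2-fold. The median log2 ratio was 0.21, and it was 0.29 within Acta2-poor pericytes and 0.26 within Acta2-rich cells. There, 8 of 19 (4.06% of all genes) and 7 of 20 genes (4.41%) had an interval above 0 and none below. Some of these rested on single cells. Without the top cell of each library Col1a2 stood at 0.36 (-0.026 to 0.74) in Acta2-poor pericytes, and the intervals of Col5a1 and Fn1 included 0 there too. That of Col1a1 then included 0 in Acta2-rich cells, and those of Col4a2 and Fn1 over all selected cells. Col4a1 and Col4a2 encode the chains of the main type IV collagen and lie head to head on chromosome 8. Col4a1 had 570 UMIs in CM against 730 in TCM, or 65.3 UMIs per 100000 in CM and 93.6 in TCM, a ratio of 0.52 (0.36 to 0.68). It was higher within Acta2-poor pericytes at 0.65 (0.47 to 0.83) and within Acta2-rich cells at 0.82 (0.47 to 1.18). Col4a2 had 552 UMIs in CM against 570 in TCM, with ratios of 0.33 (0.14 to 0.52) and 0.81 (0.36 to 1.26) in the same order. Hspg2, which encodes the heparan sulfate proteoglycan perlecan (chromosome 4, 137468769 to 137570630, plus strand), had 179 UMIs in CM against 276 in TCM, or 20.5 UMIs per 100000 in CM and 35.4 in TCM, with ratios of 0.74 (0.29 to 1.19) in Acta2-poor and 0.74 (0.39 to 1.11) in Acta2-rich cells. These 3 genes were higher in both kinds of cell. At equal depth Col4a1 was seen in 53.2% (45.5 to 60.8) of Acta2-poor CM pericytes and 70.5% (61.6 to 78.4) of Acta2-poor TCM pericytes, and Hspg2 in 14.5% (9.58 to 20.6) and 24.6% (17.2 to 33.2), with overlapping intervals for Hspg2. Col4a1 and Col4a2 are named here after their values were seen.

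Some matrix genes differed in one kind of cell only by their own intervals. Nid2, a nidogen that links laminin to collagen IV, had 22 UMIs in CM against 31 in TCM in Acta2-poor pericytes, a ratio of 0.95 (0.11 to 1.8). Col18a1, a basement membrane collagen whose end is released as endostatin, had 91 UMIs in CM against 174 in TCM in Acta2-rich cells, a ratio of 0.84 (0.47 to 1.23), and 7 UMIs in CM against 1 in TCM in Acta2-poor pericytes. Sparc, a calcium-binding matrix protein and the gene of the list with the most UMIs, was lower over all cells at -0.11 (-0.17 to -0.043), but its interval included 0 in Acta2-poor pericytes, -0.042 (-0.12 to 0.035), and it was higher in Acta2-rich cells, 0.23 (0.11 to 0.36). Of the laminin genes, Lamb2 was higher over all cells at 0.42 (0.10 to 0.75), with 147 UMIs in CM against 176 in TCM. It stood at 0.45 (-0.16 to 1.06) in Acta2-poor and 0.28 (-0.11 to 0.67) in Acta2-rich cells, where both intervals included 0. Lama4 stood at 0.42 (-0.038 to 0.87) and Lamc1 at -0.057 (-0.54 to 0.42) in Acta2-poor pericytes, and Lamb1 at 0.0070 (-0.38 to 0.39), all with intervals that included 0. Postn, a matrix gene that the rule used, stood at 0.16 (0.058 to 0.26) there, as a description.

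The higher collagen IV was shared with other cells. Col4a1 had a ratio of 0.61 (0.52 to 0.69) in endothelial cells, 0.43 (0.27 to 0.60) in fibroblasts and 0.90 (0.28 to 1.53) in the other smooth muscle cells, and the ratio over all selected cells differed from that of endothelial cells by -0.086 (-0.26 to 0.092). Hspg2 did differ from the endothelium, where its ratio was -0.092 (-0.53 to 0.35), by 0.88 (0.38 to 1.38). Its ratio in fibroblasts was 0.38 (0.041 to 0.71). Of the matrix genes, 13 of 21 had an interval above 0 in fibroblasts (6.4% of all genes) and none below, with a median of 0.24. In the other smooth muscle cells 5 of 18 lay above (5.82%) and 1 below (4.65%), with a median of 0.29. In endothelial cells 3 of 18 lay above (8.95%) and 3 below (7.73%), with a median of 0.0083.

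**Figure D4:**
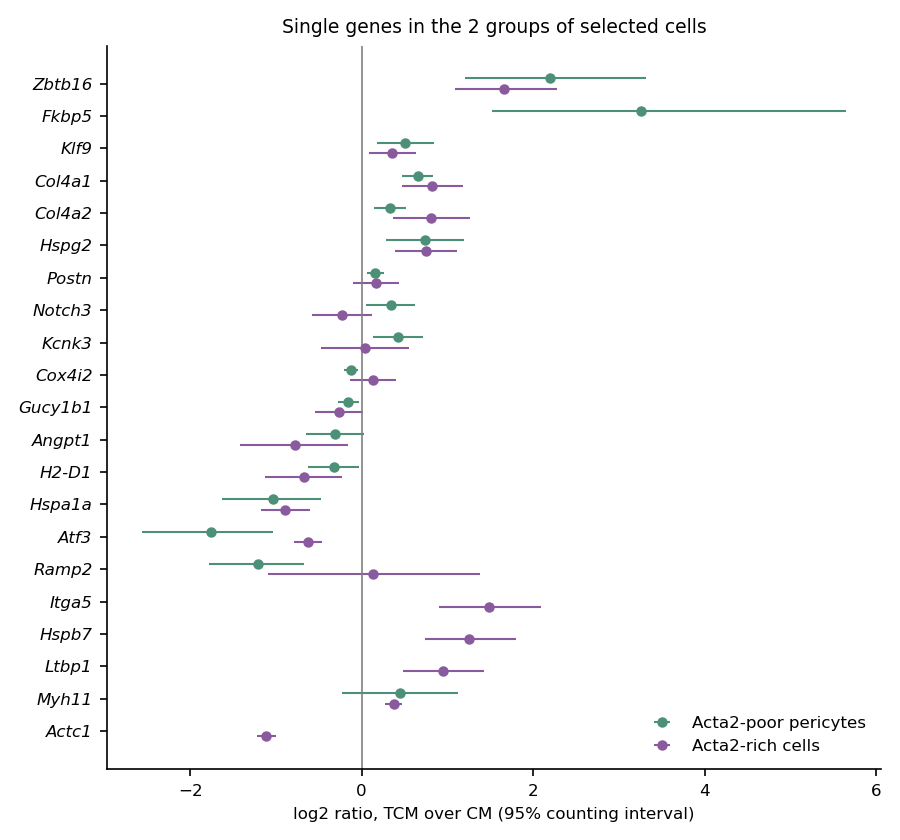
Log2 ratios of TCM to CM for single genes in Acta2-poor pericytes (green) and Acta2-rich cells (purple), with 95% counting intervals as bars and only genes of at least 20 UMIs in that kind of cell drawn. Zbtb16, Klf9, Col4a1, Col4a2 and Hspg2 lie above 0 in both kinds, Hspa1a and Atf3 below 0 in both, and Itga5, Hspb7, Ltbp1 and Actc1 are drawn for Acta2-rich cells alone.

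Genes that define pericytes differed in both directions, and none of those tested over all selected cells or in Acta2-poor pericytes was past 2-fold. Of the 16 markers outside the rule, 15 had enough UMIs, with 1 interval above 0 (4.92% of all genes), 2 below (4.97%) and a median of -0.06. Within Acta2-poor pericytes 3 of 13 had an interval above 0 (4.06% of all genes) and 1 below (3.49%), with a median of 0.05. The 1 below was Gucy1b1 at -0.15 (-0.27 to -0.035). The 3 above were Notch3, the Notch receptor of mural cells, at 0.34 (0.052 to 0.62), the potassium channel gene Kcnk3 at 0.42 (0.13 to 0.71) and the membrane protein gene Fam162b at 0.32 (0.082 to 0.57). Cspg4, which encodes the proteoglycan NG2, had 124 UMIs in CM against 92 in TCM there, a ratio of 0.020 (-0.39 to 0.42), and Trpc6, a calcium channel gene, 205 UMIs in CM against 173 in TCM, a ratio of 0.21 (-0.095 to 0.50). Vtn, which encodes vitronectin, stood at 0.0050 (-0.23 to 0.24), Ebf1, a transcription factor of the pericyte lineage, at -0.073 (-0.32 to 0.17), and Agtr1a, the angiotensin II receptor gene, at 0.17 (-0.24 to 0.57). Kcnj8, a potassium channel gene, had 36 UMIs in CM against 14 in TCM, a ratio of -0.91 (-1.92 to 0.014). Rgs5, a common marker of pericytes in other organs, was scarce, with 34 UMIs in 16 CM cells and 51 UMIs in 10 TCM cells, and 23.5% of the UMIs of both libraries lay in 1 cell.

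The 6 markers of the rule are described only, since they chose the cells. In Acta2-poor pericytes Cox4i2 had 624 UMIs per 100000 in CM and 573 in TCM, a ratio of -0.12 (-0.21 to -0.038). Higd1b stood at 135 and 146 UMIs per 100000, Pdgfrb at 129 and 146, Gucy1a1 at 593 and 543 and Ndufa4l2 at 177 and 163. Over all selected cells Cox4i2 was lower in TCM at -0.34 (-0.42 to -0.26), which was -0.12 (-0.21 to -0.038) within Acta2-poor pericytes and 0.14 (-0.13 to 0.40) within Acta2-rich cells. Cox4i2, Ndufa4l2 and Higd1b encode hypoxia-linked forms of mitochondrial proteins, and their common relatives Cox4i1, Ndufa4 and Higd1a, which the rule did not use, had ratios of -0.043 (-0.27 to 0.18), 0.12 (-0.52 to 0.76) and -0.016 (-0.70 to 0.65) in Acta2-poor pericytes. None of these 3 intervals excluded 0.

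Nitric oxide relaxes mural cells through cyclic GMP. Gucy1b1, the beta subunit of the cyclase and not part of the rule, had 325 UMIs per 100000 in CM and 292 in TCM in Acta2-poor pericytes, a ratio of -0.15 (-0.27 to -0.035), against -0.38 (-0.49 to -0.27) over all cells. Downstream, Prkg1, the cyclic GMP-dependent kinase, had 73 UMIs in CM against 88 in TCM, a ratio of 0.72 (0.26 to 1.19). Of the phosphodiesterases that end the signal, Pde3a stood at 0.53 (0.13 to 0.94) and Pde5a, the target of sildenafil, at -0.040 (-0.18 to 0.10). Within Acta2-rich cells none of 9 genes of this list had an interval off 0. Prkg1 and Pde3a are named after their values were seen.

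Of 16 Notch genes, 11 had enough UMIs over all cells and none had an interval off 0. Within Acta2-poor pericytes 1 of 7 had an interval above 0 (4.06% of all genes), that of Notch3 at 0.34 (0.052 to 0.62), and the median was 0.21. Heyl, a Notch target of mural cells, had 109 UMIs in CM against 94 in TCM in Acta2-poor pericytes, a ratio of 0.24 (-0.18 to 0.65), and Hes1, another target, 58 UMIs in CM against 49 in TCM, a ratio of 0.21 (-0.37 to 0.78). The receptor Notch1 stood at 0.036 (-0.46 to 0.52) and the ligand Jag1 had 18 UMIs in CM against 22 in TCM over all cells.

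Of 13 genes of platelet-derived growth factor and angiopoietin signalling, 11 had enough UMIs, 1 with an interval above 0 (4.92% of all genes) and 3 below (4.97%). Angpt1, the ligand with which pericytes quiet the endothelial receptor Tek (chromosome 15, 42424723 to 42676977, minus strand), had 256 UMIs in 134 CM cells and 153 UMIs in 88 TCM cells, a ratio of -0.58 (-0.88 to -0.29). It was lower within Acta2-rich cells, -0.78 (-1.42 to -0.15), and its interval included 0 within Acta2-poor pericytes, -0.31 (-0.65 to 0.029). Without the top cell of each library it was -0.35 (-0.71 to -0.0085) there, just below 0. Angpt2, its antagonist, had 30 UMIs in CM against 9 in TCM in Acta2-poor pericytes, a ratio of -1.29 (-2.55 to -0.17). Acta2-rich cells had 38 UMIs of Angpt2 in CM against 45 in TCM, a ratio of 0.15. Over all selected cells Angpt2 had 68 UMIs in CM against 54 in TCM, a ratio of -0.17. This was -0.18 (-0.74 to 0.38) without the top cell of each library. The endothelial receptor genes Flt1 and S1pr1 were also lower, with 27 UMIs in CM against 10 in TCM and 29 UMIs in CM against 12 in TCM, beside the lower sum of endothelial markers given above. Without its top cells S1pr1 stood at -1.09 (-2.32 to 0.028). Vegfa, the endothelial growth factor gene, had 10 UMIs in CM against 22 in TCM, and 15.6% of them lay in 1 cell.

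Contractile genes were compared within Acta2-rich cells, which hold nearly all of them and were split off by 4 of them. Of 12 genes there, 2 had an interval above 0 (4.41% of all genes), 4 below (4.28%), and the median was -0.07. Myh11, the smooth muscle myosin heavy chain and one of the 4, had 340.0 UMIs per 100000 in CM and 441 in TCM, a ratio of 0.37 (0.28 to 0.47). Des, which encodes the intermediate filament desmin, stood at 0.31 (0.18 to 0.45). Acta2, smooth muscle actin, was lower at -0.32 (-0.36 to -0.29). One CM cell held 890 of its 12045 UMIs in CM, and without the top cell of each library the ratio was -0.31 (-0.35 to -0.28). Over all selected cells Acta2 turned from -0.072 to 0.10 without the 5 deepest cells of each library. In Acta2-rich cells Tpm1, a tropomyosin, was lower at -0.32 (-0.43 to -0.22). Cald1, caldesmon, stood there at -0.19 (-0.33 to -0.054) and Tagln, transgelin, at -0.16 (-0.20 to -0.11). In Acta2-poor pericytes Des, a known pericyte gene, had 304 UMIs in CM against 276 in TCM, a ratio of 0.31 (0.071 to 0.55). Cald1 had 519 UMIs there in CM against 309 in TCM, a ratio of -0.30 (-0.51 to -0.092). The other smooth muscle cells, chosen by Myh11, Cnn1, Actg2 and Des, went the other way from the Acta2-rich cells. There 10 of 12 contractile genes had an interval above 0 (5.82% of all genes) and none below (4.65%), with a median of 0.48.

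Actc1, the actin of heart muscle (chromosome 2, 114047282 to 114053548, minus strand), had the interval farthest below 0 of the genes ranked. It had 2107 UMIs in 56 CM cells and 1040 UMIs in 61 TCM cells, or 242 UMIs per 100000 in CM and 133 in TCM, a ratio of -0.86 (-0.97 to -0.75). In Acta2-rich cells the ratio was -1.11 (-1.22 to -1.0), while the other smooth muscle cells, with 402 UMIs per 100000 in CM and 395 in TCM, had a ratio of -0.024 (-0.16 to 0.11). Tnnt2, another heart muscle marker, had 24 UMIs in CM against 54 in TCM, a ratio of 1.33 (0.61 to 2.09), in the opposite direction. The promoter window of Actc1 (chr2:114052876-114053125, minus strand) is shown for that reason, with 1 CArG box, the serum response factor site of many actin genes, in capitals.
Actc1: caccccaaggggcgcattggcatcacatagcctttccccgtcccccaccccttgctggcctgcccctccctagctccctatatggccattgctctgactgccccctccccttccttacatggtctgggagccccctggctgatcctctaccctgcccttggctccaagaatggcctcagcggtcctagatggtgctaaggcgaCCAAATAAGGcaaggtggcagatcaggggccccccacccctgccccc
The box ended 37 bases before the RefSeq start of Actc1, which lies inside the span of the gene given above. A CArG box was found in 1.47% of all promoters of this length and in 1 of the 9 contractile genes with an entry, Myl9.

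Genes of transforming growth factor beta signalling differed in Acta2-rich cells in both directions, with 3 intervals above 0 (4.41% of all genes) and 3 below (4.28%) of 17. Ltbp1, which holds latent TGF-beta in the matrix, had 58 UMIs in CM against 119 in TCM, a ratio of 0.95 (0.48 to 1.42), and Id1, a target of bone morphogenetic proteins, 34 UMIs in CM against 67 in TCM, a ratio of 0.89 (0.27 to 1.53). Ccn1 and Ccn2, matricellular targets of stretch and TGF-beta, were lower at -0.81 (-1.05 to -0.57) and -0.67 (-0.91 to -0.42), and Id3 at -0.32 (-0.50 to -0.15). In Acta2-poor pericytes none of 13 genes of the list had an interval off 0. Ccn1 is named after its values were seen.

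Among the genes with the farthest intervals, 3 more are given with their ratios in Acta2-rich cells. Itga5, the fibronectin receptor subunit, had 42 UMIs in 23 CM cells and 106 UMIs in 35 TCM cells, with a ratio in Acta2-rich cells of 1.48 (0.91 to 2.09). Hspb7, a small heat-shock protein of muscle, had 44 UMIs in 24 CM cells and 112 UMIs in 31 TCM cells, a ratio there of 1.26 (0.74 to 1.79). S100a4, a calcium-binding protein, had 57 UMIs in 24 CM cells and 136 UMIs in 35 TCM cells, a ratio there of 1.12 (0.66 to 1.6). S100a4 was higher in Acta2-poor pericytes too, at 0.87. In the other smooth muscle cells these genes stood at -0.39 (-1.17 to 0.37), 0.81 (0.016 to 1.63) and -1.73 (-2.67 to -0.87).

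Immediate early genes answer within minutes to growth factors and to the stress of dissociation, and heat-shock genes to misfolded protein. All 20 had enough UMIs, 2 with an interval above 0 (4.92% of all genes) and 8 below (4.97%), and a median of -0.14. Within Acta2-poor pericytes 1 lay above (4.06%) and 6 below (3.49%), and within Acta2-rich cells 2 above (4.41%) and 12 below (4.28%), with a median of -0.26. Hspa1a, the inducible HSP70 (chromosome 17, 34969190 to 34972156, minus strand), had 383 UMIs in 84 CM cells and 198 UMIs in 68 TCM cells, or 43.9 UMIs per 100000 in CM and 25.4 in TCM. Its ratio was -1.04 (-1.63 to -0.48) in Acta2-poor and -0.89 (-1.18 to -0.61) in Acta2-rich cells, and Hspa1b, its near-identical copy, had 91 UMIs in CM against 49 in TCM. Reads of these copies may have been split between them. Atf3, a stress transcription factor, had 88 UMIs in CM against 19 in TCM in Acta2-poor pericytes, a ratio of -1.76 (-2.56 to -1.03), and stood at -0.63 (-0.79 to -0.47) in Acta2-rich cells. Fos, with the most UMIs of the list, was at -0.41 (-0.67 to -0.15) and -0.44 (-0.52 to -0.35) in the same order. Btg2, an antiproliferative gene, was higher in both, at 0.66 (0.25 to 1.06) and 0.37 (0.19 to 0.56). The 5 cells with the most UMIs in each library weighed on this list. Without them its median was 0.05 and Atf3 stood at 0.042. Without cells of 2 or more UMIs of Myh11, Cnn1, Actg2 and Des the median was 0.27 and Hspa1a stood at -0.16.

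Hspa1a was lower in TCM in other cells too, at -1.16 (-1.31 to -1.01) in endothelial cells, -0.50 (-0.67 to -0.33) in fibroblasts and -2.09 (-2.5 to -1.7) in the other smooth muscle cells. In T cells the interval included 0, 0.31 (-0.11 to 0.73). The ratio over all selected cells was below that of T cells by a difference of -1.1 (-1.58 to -0.63).

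**Figure D5:**
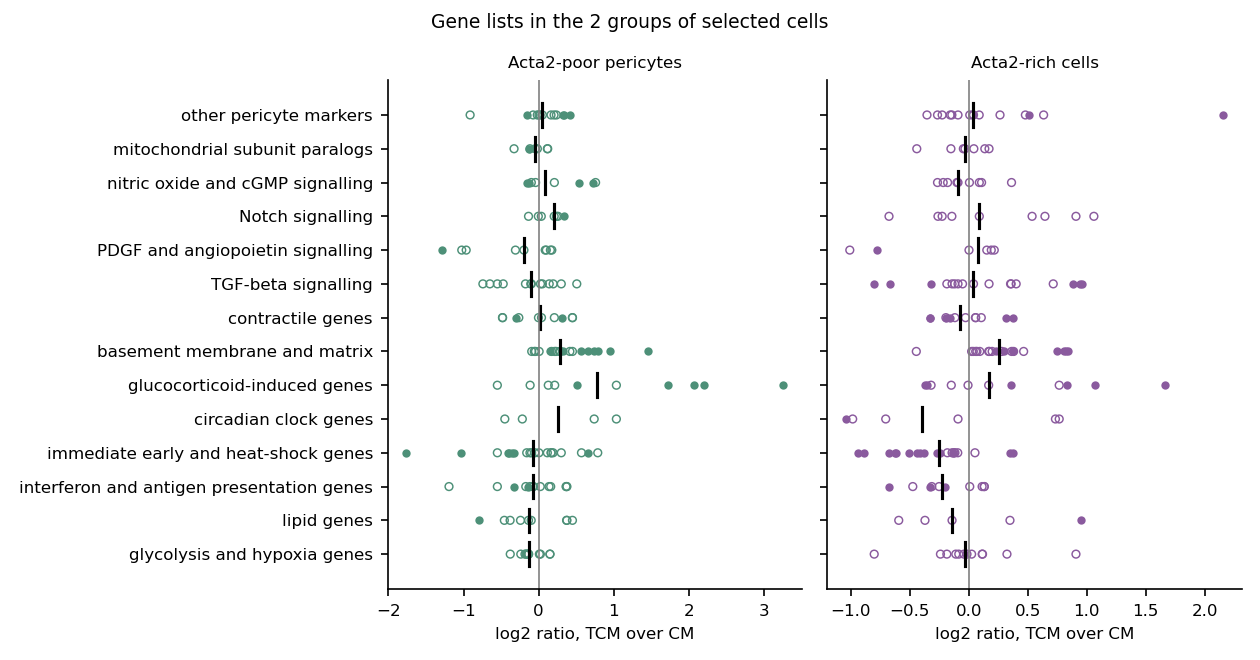
Log2 ratios of TCM to CM for the members of 14 gene lists in Acta2-poor pericytes (left) and Acta2-rich cells (right), with 1 point per gene of at least 20 UMIs, filled where the 95% counting interval excludes 0, and a black bar at the list's median. The x axes of the panels have their own scales. The medians of the matrix genes lie at 0.29 and 0.26, and that of the immediate early and heat-shock genes in Acta2-rich cells at -0.26.

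Neutrophil genes had large ratios. S100a8 and S100a9, which encode the subunits of calprotectin, had 14 UMIs in CM against 367 in TCM and 19 UMIs in CM against 520 in TCM. Their ratios were 4.87 (4.11 to 5.76) and 4.94 (4.28 to 5.68). In TCM 3 selected cells held 20 or more UMIs of these genes, against none in CM, and without them and the cell rich in club cell RNA the ratios were 3.37 and 3.21. The interleukin gene Il1b had 11 UMIs in 8 CM cells and 85 UMIs in 34 TCM cells, a ratio of 3.11 (2.2 to 4.17), and with the same cells left out its ratio was 2.17. T cells, which are not known for calprotectin, had ratios of 3.33 (3.1 to 3.58) and 2.99 (2.81 to 3.17), and fibroblasts 3.6 (3.2 to 4.03) and 3.23 (2.91 to 3.56). Hdc, Srgn, Selplg and Alox5ap, genes of leukocytes, followed with 2 UMIs in CM against 22 in TCM for Hdc, 36 UMIs in CM against 113 in TCM for Srgn, 4 UMIs in CM against 23 in TCM for Selplg and 8 UMIs in CM against 31 in TCM for Alox5ap. Their ratios were 3.62 (1.6 to 6.75), 1.81 (1.26 to 2.4), 2.69 (1.14 to 4.68) and 2.12 (0.96 to 3.45) in that order. In T cells Srgn stood at 0.25 (0.15 to 0.36) and Il1b at 2.17 (1.79 to 2.56), and in fibroblasts at 1.05 (0.70 to 1.41) and 0.96 (0.49 to 1.43).

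Of the other chemokine and niche genes, Ccl11 and Ccl2 rested on few cells. Ccl11, the eosinophil chemokine, had 7 UMIs in CM against 74 in TCM, and 91.4% of them lay in 1 cell. Ccl2, the monocyte chemokine, had 4 UMIs in 3 CM cells and 34 UMIs in 2 TCM cells, of which one TCM cell held 32. Cxcl2 had 60 UMIs in CM against 11 in TCM in Acta2-poor pericytes and 9 UMIs in CM against 99 in TCM in Acta2-rich cells. Cxcl1, a related neutrophil chemokine, had 39 UMIs in CM against 81 in TCM and 173 UMIs in CM against 141 in TCM in the same order, a ratio of 1.51 (0.94 to 2.1) against -0.39 (-0.72 to -0.057), with 47 of the Acta2-poor TCM UMIs in one cell. Without the top cell of each library Cxcl1 stood at 1.24 (0.40 to 2.12) in Acta2-poor pericytes and -0.35 (-0.72 to 0.020) in Acta2-rich cells. Cxcl2 then stood at -1.68 (-2.84 to -0.67) in Acta2-poor pericytes, and over all selected cells its interval included 0. Timp3, an inhibitor of metalloproteinases, was higher in Acta2-poor pericytes, 73 UMIs in CM against 86 in TCM, a ratio of 0.69 (0.22 to 1.16), and stood at -0.067 (-0.26 to 0.13) in Acta2-rich cells. Lox and Loxl2, which cross-link collagen, stood at -0.031 (-0.82 to 0.75) and 0.15 (-0.22 to 0.52) over all cells. Of 16 genes of this list with enough UMIs, 9 had an interval above 0 (4.92% of all genes), S100a8 and S100a9 among them. Cxcl1 and Cxcl2 are named after their values were seen.

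Of 18 interferon and antigen presentation genes, 15 had enough UMIs, with 4 intervals below 0 (4.97% of all genes) and none above. H2-D1, a class I histocompatibility gene, had 370 UMIs in CM against 225 in TCM, or 42.4 UMIs per 100000 in CM and 28.8 in TCM, with ratios of -0.33 (-0.62 to -0.032) in Acta2-poor and -0.68 (-1.13 to -0.23) in Acta2-rich cells, against -0.14 (-0.18 to -0.11) in endothelial cells. H2-K1, another class I gene, stood at 0.022 (-0.28 to 0.32), and B2m, the light chain of both, at -0.12 (-0.49 to 0.25). Ifitm3, an antiviral membrane protein gene, stood at -0.15 (-0.28 to -0.011) and -0.20 (-0.38 to -0.016). These class I genes are near copies, and reads may have been split among them.

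Lipid supply to the lung was a theme of the study, and 12 of 14 lipid genes had enough UMIs. Of these, 1 had an interval above 0 (4.92% of all genes) and none below (4.97%). Fabp4, a fatty acid binding protein gene of the endothelium, had 30 UMIs in 19 CM cells and 45 UMIs in 18 TCM cells, a ratio of 0.75 (0.048 to 1.46), and 0.51 (-0.31 to 1.34) without the top cell of each library. Plin2, which coats lipid droplets, had 69 UMIs in CM against 29 in TCM in Acta2-poor pericytes, a ratio of -0.80 (-1.48 to -0.15), and 16 UMIs in CM against 33 in TCM in Acta2-rich cells, a ratio of 0.95 (0.051 to 1.91). The fatty acid uptake gene Cd36 had 38 UMIs in CM against 44 in TCM, the lipase gene Lpl 31 UMIs in CM against 27 in TCM and the fatty acid synthase gene Fasn 21 UMIs in CM against 23 in TCM. Their ratios were 0.37 (-0.29 to 1.04), -0.038 (-0.84 to 0.75) and 0.29 (-0.63 to 1.22) with intervals that included 0, and no difference in these 3 genes was detectable at this depth.

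Glycolysis and hypoxia genes gave 1 interval below 0 among 13 (4.97% of all genes) and none above (4.92%). It was that of Epas1, the hypoxia-inducible factor 2 alpha gene, at -0.17 (-0.33 to -0.017), which was -0.13 (-0.33 to 0.060) within Acta2-poor pericytes. Aldoa, an aldolase, stood at 0.10 (-0.072 to 0.27) and Pkm, pyruvate kinase, at -0.050 (-0.27 to 0.17). None of 7 retinoic acid genes with enough UMIs had an interval off 0. Of 11 cell cycle genes only Pcna had enough UMIs, with 44 UMIs in CM against 37 in TCM, and the proliferation marker Mki67 had 2 UMIs in CM against 3 in TCM.

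Among the genes with the farthest intervals below 0, Ramp2, a coreceptor for adrenomedullin that is strong in endothelium, had 132 UMIs in 58 CM cells and 52 UMIs in 41 TCM cells, a ratio of -1.18 (-1.67 to -0.71). It was -1.21 (-1.77 to -0.67) in Acta2-poor pericytes and 0.13 (-1.09 to 1.37) in Acta2-rich cells, and in endothelial cells the ratio was 0.16 (0.13 to 0.18). The other genes had few UMIs, seldom more than 1 in a cell. Plxnd1, a semaphorin receptor, had 47 UMIs in CM against 16 in TCM, Acvr1, a receptor for bone morphogenetic proteins, 30 UMIs in CM against 8 in TCM, and Dgkb, a diacylglycerol kinase, 30 UMIs in CM against 7 in TCM. Topbp1, a DNA replication factor, had 22 UMIs in CM against 4 in TCM, Zmiz2, a transcriptional coregulator, 28 UMIs in CM against 7 in TCM, Zfp180, a zinc finger protein, 27 UMIs in CM against 6 in TCM, and Exoc3l4 20 UMIs in CM against 4 in TCM. Itpkc, an inositol trisphosphate kinase and the last of the genes higher in TCM, had 3 UMIs in CM against 18 in TCM, a ratio of 2.75 (0.97 to 5.15).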

How the data were processed

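Single-cell RNA libraries of whole lung were analysed, 1 from mice given CM and 1 from mice given TCM, grouped by the treatment label. The authors made 5-prime droplet libraries (10x Genomics), sequenced them on an Illumina instrument and mapped reads with Cell Ranger 4 to mm10 (GRCm38.p6); Seurat is also named in the submitters' notes. The deposited matrices hold raw counts, as UMIs per gene and barcode, for 737280 barcodes in each library, with no filter on cells. The CM matrix sums to 31944151 UMIs and the TCM matrix to 36648719.

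The members, gene lists and rules were chosen with earlier results of these data known. Droplets with at least 500 UMIs, at least 200 genes and at most 10% mitochondrial UMIs were kept, 7988 in CM and 7707 in TCM. Counts were summed over the cells of a class and divided by all their UMIs (per 100000), and a gene needed at least 20 UMIs over both libraries. A log2 ratio has the 95% conditional binomial interval of its 2 sums, and a share has the exact Clopper-Pearson interval. A sum of 0 was set to a floor of 3 counts. PCR duplicates are removed by UMIs, and intervals and floors cover counting error only. Intervals of ratios treat UMIs as independent and leave out the spread between cells. With 1 library per group no test and no p-value was computed. Comparison classes were fibroblasts, endothelial cells, T cells and smooth muscle cells that did not meet the pericyte rule, selected by at least 4 UMIs of their markers. Fibroblasts, endothelial cells and T cells also had to hold no UMI of Cox4i2 or Higd1b. Differences between ratios of classes were taken between the same 2 libraries. Free RNA was estimated from droplets of at most 50 UMIs with 8 probe genes. Doublets were scored with Scrublet in scanpy 1.11.5; its automatic threshold marked 0% of cells, so the caller did not work and no cell was removed, and the top 6% of scores were left out as an alternative. The ratio and thinning steps were tested on simulated data.

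Genes were named by a rule: in each direction the 10 genes whose interval lay farthest from 0, among those seen in at least 10 cells with at most 25% of UMIs in 1 cell, 2 to 4 members of each list, and all pericyte markers and mitochondrial relatives. Other names are marked in the text or illustrate a list, and 1 gene is not reported here. Alternatives were other cell, gene and marker minimums, a mitochondrial limit of 5%, thinning to 1000 UMIs, means over cells, median centring, subtraction of free RNA, and leaving out contractile, deep, high-scoring or contaminated cells. Gene positions come from the annotation of GRCm38, and sequences from RefSeq. Analyses used Python 3.11.15 with numpy 2.4.6, scipy 1.17.1 and pandas 2.3.3.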

Additional observations from a re-analysis of the deposited data

How the results depend on the processing

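No paired analysis was possible because each group has 1 library. There were 1385 values of 100 genes under the alternatives. Of these, 1142 differed from the reported value by no more than its counting interval, 197 by more, and 46 were counted as reversed in sign. Other values changed sign without being counted as reversed. Among them, within Acta2-rich cells Cxcl1 stood at -0.39, Plin2 at 0.95, Kcnj8 at 0.035 and Vtn at 0.48. After thinning Cspg4 stood at -0.23 and Trpc6 at 0.36, and as a mean over cells Abcc9 stood at 0.57. No value was counted as reversed for 73 genes. Of these genes, Zbtb16 (1.66 to 3.13), Col4a1 (0.49 to 0.82), Hspg2 (0.61 to 0.89), Klf9 (0.28 to 0.56) and Hspa1a (-1.04 to -0.16) kept their sign throughout. The alternatives that left out cells by contractile, neutrophil or club cell genes, or left out the cell richest in a gene, were chosen after seeing the data.

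The log2 ratios over all selected cells that were counted as reversed were these. Without the 5 deepest cells of each library Acta2 stood at 0.10 and Atf3 at 0.042. With at least 6 marker UMIs Mt1 stood at -0.019. With cells thinned to 1000 UMIs Acta2 stood at 0.11, Ccn2 at 0.32, Cxcl2 at -0.56, Epas1 at 0.0043, Hspa8 at 0.037, Itga1 at 0.13, Rgs5 at -0.68 and Sparc at 0.060. Without cells of 2 or more UMIs of Myh11, Cnn1, Actg2 and Des the genes stood differently, with Ccn1 at 0.64, Col18a1 at -0.10, Cxcl2 at -1.28, Des at -0.46, Fos at 0.090, Hspa1b at 0.28, Ltbp1 at -1.36, Pde5a at 0.062, Plxnd1 at 0.64 and Tagln at -0.018. Without cells rich in neutrophil or club cell RNA Cxcl2 stood at -1.55. Within Acta2-poor pericytes Acta2 stood at 0.21, Ccn2 at 0.025, Col18a1 at -2.36, Cxcl2 at -2.0, Itga1 at 0.050, Itga5 at -0.23 and Tagln at -0.48. Within Acta2-rich cells Ccl11 stood at -1.31, Cox4i2 at 0.14, Epas1 at 0.11, Fabp4 at -0.14, Ifitm1 at 0.13, Mt1 at -0.37, Ndufa4l2 at 0.17, Ramp2 at 0.13, Sparc at 0.23, Tagln at -0.16 and Timp3 at -0.067. As a mean over cells Acta2 stood at 0.10, Ccn2 at 0.15, Cxcl2 at -0.21, Fos at 0.030, Itga1 at 0.091 and Pde5a at 0.094. For Rgs5, Ccl11, Cxcl2 and Plxnd1 few UMIs or 1 to 3 cells carried the value.

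The share of selected cells in TCM relative to CM was 0.828, and it was 0.634 without cells of 2 or more UMIs of Myh11, Cnn1, Actg2 and Des, and 1.05 for Acta2-rich cells alone. The 220 and 145 genes at least 2-fold higher and lower became 436 and 384 with a minimum of 10 UMIs, 52 and 23 with 50, and 787 and 642 with none. They became 426 and 330 as means over cells. The higher genes were 127 after thinning, and the lower genes 246 with free RNA subtracted. The 410 and 414 genes with an interval above and below 0 became 161 and 149 after thinning, 182 and 197 without cells of 2 or more smooth muscle UMIs, 243 and 209 within Acta2-poor pericytes, and 246 and 239 within Acta2-rich cells, where fewer UMIs were summed.

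List medians moved in 9 of 221 cases. Without cells of 2 or more smooth muscle UMIs the median of the contractile genes was -0.36, of the matrix genes 0.51, of the immediate early and heat-shock genes 0.27 and of the glucocorticoid-induced genes 1.02. Within Acta2-rich cells the contractile genes were at -0.072 and the PDGF and angiopoietin genes at 0.078. The interferon and antigen presentation genes were at -0.12 after thinning and at -0.072 within Acta2-poor pericytes, and the immediate early and heat-shock genes were at 0.052 without the 5 deepest cells. The causes of these shifts were not tested. Depth limits genes with under 20 UMIs and with 1 library per group the spread between mice is unknown.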
